A study of Mus musculus with 16 samples.

Results

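The genes that encode the calcium-activated potassium channels of the SK and BK families were examined in mRNA from SNc dopaminergic neurons. They were taken from a fixed list of gene symbols and matched to the Ensembl identifiers of the count tables, which gave 7 genes of 25006. Kcnn1, Kcnn2, Kcnn3 and Kcnn4 encode the pore-forming subunits SK1, SK2, SK3 and SK4, Kcnma1 encodes the pore-forming subunit of BK, and Kcnmb2 and Kcnmb4 encode the BK accessory subunits beta2 and beta4.

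SK and BK channels open when cytosolic Ca2+ rises and let K+ leave the cell, which couples Ca2+ entry during a spike to the repolarization that follows. SK channels are gated by calmodulin bound to each pore subunit, carry the medium afterhyperpolarization and are known in SNc dopaminergic neurons for keeping pacemaking regular. BK channels sense both voltage and Ca2+ and act on spike repolarization and the fast afterhyperpolarization, and their beta subunits set Ca2+ sensitivity and inactivation.

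The tissue came from mice at postnatal day 45, and both genotypes carried one DAT-Cre allele (DAT-Cre +/-), in which Cre follows the dopamine transporter promoter. Control mice carried no further allele (8 mice), and MCU-KO mice were DAT-Cre+/- MCU fl/fl (8 mice), so that Cre removes the mitochondrial Ca2+ uniporter where DAT is active. All 16 mice received an AAV with a Cre-dependent RiboTag, a tagged ribosomal protein, and 30 days later the tagged ribosomes of the substantia nigra were immunoprecipitated with the mRNA they held. One library was made per mouse, and mice with the same number in the 2 genotypes are different animals. The targeted gene Mcu had 120, 401 and 828 normalized counts (lowest, median and highest of 8) in control and 5.82, 246 and 410 in MCU-KO, so the ranges overlapped. The log2 fold change of Mcu was -1.19 ± 0.59 (SE) and its adjusted p 1.0 (edgeR's quasi-likelihood F test, p-values adjusted by Benjamini-Hochberg). The exons removed by Cre are not separated from the rest of Mcu in counts per gene.

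Library totals ran from 14129527 to 22016362 counts, so that the detection floor of 3 counts was 0.136 to 0.212 CPM, a unit in which counts are scaled by library depth. The summed CPM of 10 dopaminergic markers ran from 13480 to 17520 in control and from 11710 to 19950 in MCU-KO. Marker mRNA of other cells was also present, above all that of oligodendrocytes, with 2664 to 5207 summed CPM over 6 markers in control and 3102 to 6289 in MCU-KO. The 5 astrocyte markers summed to between 77.7 and 325.5 CPM in control and between 136 and 484.5 in MCU-KO, and the 6 microglial markers to between 25.0 and 96.8 and between 29.1 and 137. GABA neuron markers (3 genes) lay between 78.5 and 276 CPM over all mice, glutamate neuron markers (2 genes) between 12.3 and 103 and endothelial markers (3 genes) between 4.76 and 35.0. The 4 markers of smooth muscle and pericytes did not exceed 14.5 CPM in sum. No marker of any list was at 0 in all libraries, and none of those tested differed between genotypes at an adjusted p under 0.05. In such bulk samples fewer cells of a type and less RNA per cell cannot be told apart.

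The pore of each channel holds a short selectivity filter through which K+ passes. The coding sequence around it is shown for the most abundant SK gene, for its paralog Kcnn1, for the SK gene seen in a single mouse and for the BK pore gene, because these windows show how far apart the members are for read counting. Capitals mark the 9 bases that encode glycine, tyrosine and glycine of the filter, and the sequences were read 5′ to 3′ on the coding strand from GENCODE M21 transcripts (GRCm38). The capitals lie at chr8:70850657-70850665 on the minus strand for Kcnn1, at chr3:89645518-89645526 on the plus strand for Kcnn3, at chr7:24379204-24379212 on the plus strand for Kcnn4 and at chr14:23528413-23528421 on the minus strand for Kcnma1, each within 1 coding exon.
Kcnn1: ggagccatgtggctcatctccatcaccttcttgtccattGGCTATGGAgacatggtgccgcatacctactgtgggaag
Kcnn3: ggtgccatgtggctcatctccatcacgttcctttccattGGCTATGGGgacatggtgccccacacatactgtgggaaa
Kcnn4: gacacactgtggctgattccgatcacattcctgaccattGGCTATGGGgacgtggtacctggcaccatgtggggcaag
Kcnma1: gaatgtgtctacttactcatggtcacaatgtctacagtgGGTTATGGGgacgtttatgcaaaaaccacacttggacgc

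Of the 78 bases of this window, 69 were the same in Kcnn1 and Kcnn3, 54 in Kcnn3 and Kcnn4, and 33 in Kcnn3 and Kcnma1. Along the whole coding sequence, the longest run of bases shared by a pair of SK genes was 31, found between Kcnn1 and Kcnn4. No stretch of 50 bases of Kcnn3, Kcnn4 or Kcnmb2 occurred in a transcript of another gene. For Kcnmb4 the share of such stretches, counted on either strand, was 30.7%, with 299 genes sharing them, among these the member Kcnn1. For Kcnn1 it was 2.68%, with 282 such genes, among these Kcnmb4. It was 6.82% for Kcnn2 and 5.45% for Kcnma1. Of the exon bases of Kcnmb4, 31.5% are overlapped by the antisense genes Kcnmb4os1 and Kcnmb4os2. Kcnmb4os1 had 0 counts, and Kcnmb4os2 had 236 counts over 11 libraries. The strand setting of the counting is not given in the sources used here, so the level of Kcnmb4 is uncertain. Smaller shares of exon bases are overlapped by genes on the opposite strand in Kcnn1 (2.88%), Kcnma1 (5.98%) and Kcnn2 (8.13%).

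The members span very different loci. Kcnma1 lies on chromosome 14 (23289431 to 24014491, minus strand, GRCm38) over 725 kb, with 38 annotated transcripts and 17.0 kb of merged exons. Kcnn3 lies on chromosome 3 (89520164 to 89675132, plus strand) with 2 annotated transcripts, of which 1 is coding. Its merged exons cover 10451 bases, but its coding transcript is 2884 bases long, so its level per kb depends on which length is used. Kcnmb2 is on chromosome 3 (31902507 to 32200180), Kcnmb4 on chromosome 10 (116417861 to 116473878), Kcnn1 on chromosome 8 (70842049 to 70863258), Kcnn4 on chromosome 7 (24370263 to 24386690) and Kcnn2 on chromosome 18 (45268860 to 45686024).

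The first question was which SK and BK genes had the highest levels in the control libraries, which also held mRNA of other cells. Kcnn3 was the leading SK gene in every control mouse and Kcnma1 the leading BK gene, and both lay above the middle of the genes tested in level per kb. Kcnn2 and Kcnn1 followed, Kcnmb4 and Kcnmb2 were low, and Kcnn4 was counted in 1 mouse only.

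Kcnn3, the gene of SK3, had 1339, 1899 and 2493 normalized counts (lowest, median and highest of 8 control mice). These values are counts divided by the size factor of each library. The mean level was 9.28 ± 1.72 CPM per kb of merged exons (SD, n = 8), higher than in 62.0% of the genes tested. The control mice stayed close together, with a coefficient of variation of 18.4%, against a median of 42.6% over all genes tested. That comparison was not matched for level: the mean of Kcnn3 was 1865 normalized counts, against a median of 524.5 over the genes tested.

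Kcnn2, the gene of SK2, had 83.6, 333 and 624 normalized counts in control, a mean level of 2.52 ± 1.10 CPM per kb (SD, n = 8). Control mouse 4 was the low one, and the other 7 mice had at least 313 normalized counts. Within a mouse, Kcnn3 was higher than Kcnn2 per kb by 2.03 ± 0.73 on the log2 scale (SD, n = 8), with ratios between 1.11 and 3.501 and the same direction in 8 of 8 mice. An exact sign-flip permutation test (two-sided) gave p = 0.00781, the smallest that 8 mice allow, and 0.013 after Benjamini-Hochberg adjustment over 5 neighbour pairs.

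Kcnn1, the gene of SK1, had 2.91, 132 and 313 normalized counts in control and a mean level of 1.88 ± 1.48 CPM per kb (SD, n = 8). It was the most uneven of the 3 widely counted SK genes: mice 6, 7 and 8 lay between 311.5 and 313 normalized counts, and mouse 1 had 3 raw counts. Kcnn2 was higher than Kcnn1 in 5 of 8 control mice, by 1.04 ± 2.17 on the log2 scale (SD, n = 8), which did not pass (exact sign-flip permutation test, p = 0.234). Without control mouse 1 the difference was 0.34 (exact p = 0.469). The length used decided whether this pair passed the test, and Kcnn2 had the higher mean under every length. Without any length correction Kcnn2 was higher by 1.74 and with the longest transcript by 1.88, each with an exact sign-flip p of 0.00781, while with coding length the difference was 1.21 (p = 0.109).

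Kcnn4, the gene of SK4, which is best known from non-excitable cells, had 156 raw counts in control mouse 7 and 0 in the 7 other control mice and in the 8 MCU-KO mice. The zeros allow up to 0.212 CPM in the shallowest library, and mouse 7 had 8.37 CPM. The microglial markers summed to 29.5 CPM in that library, 14th from the highest of 16, and its oligodendrocyte markers were the lowest of 16 at 2664 CPM. Its dopaminergic markers ranked 2nd from the highest, GABA neuron markers 6th and endothelial markers 8th. Glutamate neuron markers ranked 10th, smooth muscle and pericyte markers 13th and astrocyte markers 15th. The cell source of these Kcnn4 counts was not tested. Kcnn1 was higher than Kcnn4 per kb in 8 of 8 control mice (exact sign-flip permutation test, p = 0.00781, 0.013 after adjustment). Kcnn4 was 0 in 7 of these mice, so the zeros largely set the outcome of this test. Per kb of the longest coding transcript the exact sign-flip p was 0.0156.

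Expressed as a share of the summed SK level per kb of merged exons within a mouse, Kcnn3 made up 68.6% ± 11.5 in control (SD, n = 8, range 52.7 to 85.0). Kcnn2 made up 17.7% ± 6.48 and Kcnn1 12.5% ± 8.68. Such shares depend on the length used. With the longest transcript the control means were 11.7 CPM per kb for Kcnn3 and 5.11 for Kcnn2. With the longest coding transcript they were 33.6 and 5.11.

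Kcnma1, the single pore gene of BK, had 2385, 3791 and 4293 normalized counts in control, a mean level of 11.03 ± 1.84 CPM per kb (SD, n = 8) that exceeded 65.9% of the genes tested. Control mice 1 to 6 lay between 3742 and 4293 normalized counts, and mice 7 and 8 were below them with 3033 and 2385. Its coefficient of variation of 16.7% was the lowest of the members in control.

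Kcnmb4, the gene of the beta4 subunit that is typical of neurons, had 43.4, 57.3 and 96.1 normalized counts, a mean of 0.954 ± 0.296 CPM per kb (SD, n = 8). All 8 control mice had counts, but the level exceeded only 13.1% of the genes tested. Kcnma1 was higher than Kcnmb4 per kb by 3.54 ± 0.47 on the log2 scale (SD, n = 8) and in 8 of 8 mice (exact sign-flip permutation test, p = 0.00781, 0.013 after adjustment).

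Kcnmb2, the gene of the beta2 subunit, which carries an inactivation segment, was counted in 3 of 8 control mice. Mouse 1 had 31.1 normalized counts, mouse 2 had 46.7 and mouse 8 had 125, and mice 3 to 7 had 0. The group mean was 0.421 ± 0.733 CPM per kb (SD, n = 8), and mouse 8 alone had more Kcnmb2 than Kcnmb4. Kcnmb4 was higher than Kcnmb2 in 7 of 8 control mice, by 3.62 ± 3.35 on the log2 scale (SD, n = 8), with a pseudocount of 1 (exact sign-flip permutation test, p = 0.0391, 0.0488 after adjustment). Leaving out any one of control mice 3 to 7, those without Kcnmb2 counts, gave an unadjusted exact sign-flip p of 0.0781. Without mouse 1 or mouse 2 this p was 0.0469 and without mouse 8 it was 0.0156, also before adjustment. With a pseudocount of 10 the log2 ratio of Kcnmb4 to Kcnmb2 was 1.66 (exact sign-flip permutation test, unadjusted p = 0.0391).

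**Figure D1:**
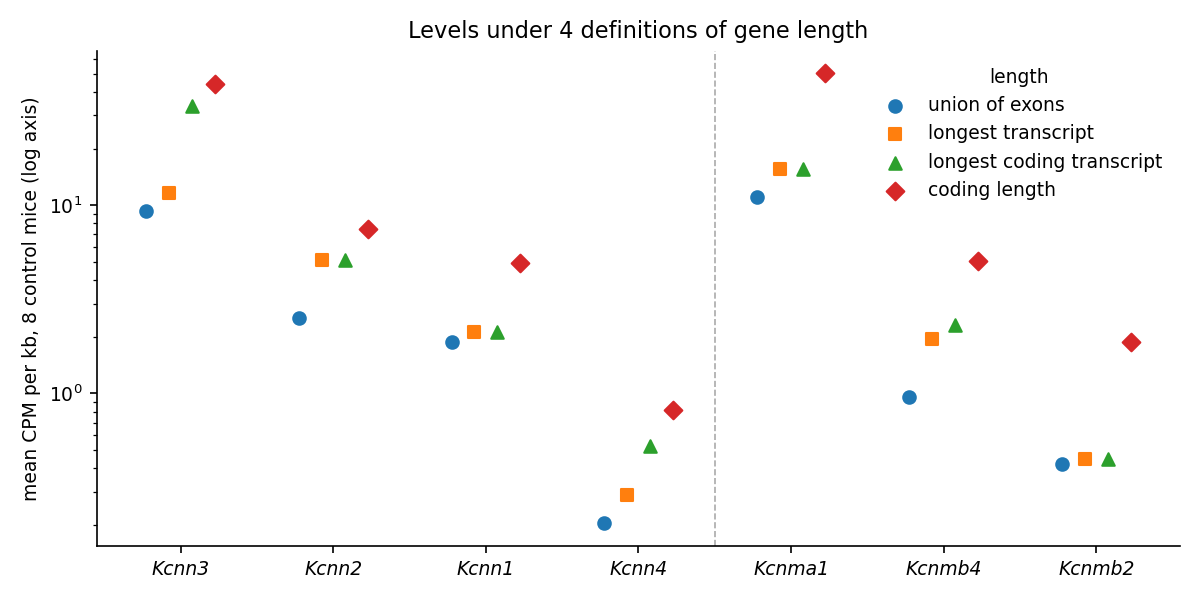
Mean CPM per kb in the 8 control mice (log axis) for the 4 SK genes, left of the dashed line, and the 3 BK genes, right of it, with each symbol shape standing for one definition of gene length. The order within each family is the same under every definition, while Kcnn3 is below Kcnma1 at 9.28 against 11.03 CPM per kb of merged exons and above it at 33.6 against 15.5 per kb of the longest coding transcript. With the longest transcript and with coding length Kcnn3 is also below Kcnma1.

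Between the families, the order of the leading genes could not be settled from gene counts. Per kb of merged exons, Kcnma1 was higher than Kcnn3 by 0.25 ± 0.40 on the log2 scale (SD, n = 8), in 6 of 8 control mice. With coding length it was higher by 0.19 ± 0.40, also in 6 of 8 control mice. With the longest transcript its mean was higher too, at 15.5 against 11.7 CPM per kb. Per kb of the longest coding transcript, a length added after the data had been seen, Kcnma1 was lower by -1.12 ± 0.40, in 0 of 8 mice higher.

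The second question was whether the loss of MCU altered these genes. Of the 7 members, 6 passed the filter on low counts, all but Kcnn4, and 0 of these differed between genotypes at an adjusted p under 0.05 in edgeR, where 0.178% of all 12390 genes were called. At an unadjusted p under 0.05, edgeR called 0 of the 6, where 4.41% of all genes tested were called. DESeq2 also called 0 members at an adjusted p under 0.05, against 0.557% of the genes it tested. Among the 6 members, 2 had a higher and 4 a lower fitted level in MCU-KO, with a median log2 fold change of -0.14 beside 0.00 over all genes tested (0.0025 before rounding).

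In MCU-KO, Kcnn3 had 1104, 1667 and 2334 normalized counts, inside the control range except for 3 mice (numbers 1, 5 and 6) that lay below it. Its log2 fold change was -0.14 ± 0.18 (SE), with a 95% interval from -0.52 to 0.23 (edgeR, adjusted p = 1.0). The MCU-KO mice were spread, with numbers 2, 3 and 7 between 2192 and 2334 and numbers 1, 5 and 6 between 1104 and 1196. Numbers 4 and 8 lay between these at 1569 and 1765, and the coefficient of variation was 30.8%.

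Kcnma1 had 2148, 3381 and 3938 normalized counts in MCU-KO, and 1 mouse, number 7, fell below the control range. Its log2 fold change was -0.14 ± 0.13 (SE), with a 95% interval from -0.41 to 0.14 (edgeR, adjusted p = 1.0). This is the narrowest interval among the members, and it holds no doubling or halving of the level.

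Kcnn2 had 53.8, 273 and 672 normalized counts in MCU-KO, with number 1 above and number 8 below the control range. Its log2 fold change was -0.30 ± 0.43 (SE, 95% interval -1.20 to 0.60, edgeR, adjusted p = 1.0). Kcnn1 had 1.38, 141 and 426 normalized counts, a log2 fold change of 0.10 ± 0.81 (SE, 95% interval -1.57 to 1.77, edgeR, adjusted p = 1.0). MCU-KO mouse 8, the shallowest library, held both minima, with 1 raw count of Kcnn1 and 39 of Kcnn2. For Kcnn1 the interval reaches more than 2-fold in both directions, so such a change was not detectable at this spread.

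Kcnmb4 had 15.4, 50.8 and 75.6 normalized counts in MCU-KO mice, and its fitted log2 fold change was -0.30 ± 0.72 (SE, 95% interval -1.78 to 1.19, edgeR, adjusted p = 1.0). Numbers 1, 2 and 6 lay below all control mice.

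Kcnmb2 had counts in 8 of 8 MCU-KO mice, with 17.5, 70.5 and 262 normalized counts (lowest, median and highest), against 3 of 8 control mice. In MCU-KO mice 1 to 8 the raw counts were 90, 18, 160, 59, 270, 29, 26 and 148, and in control mice 1, 2 and 8 they were 32, 53 and 129. The ranges overlapped, since the control mouse with the highest value, number 8, stood above 5 MCU-KO mice. The group means were 25.4 ± 44.2 normalized counts in control and 103 ± 92.1 in MCU-KO (SD, n = 8 each).

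The tests of Kcnmb2 differed in outcome. The edgeR log2 fold change was 2.01 ± 1.36 (SE), with a 95% interval from -0.80 to 4.83 and an adjusted p of 1.0. The exact permutation test, which took in all 12870 ways to part the mice and used log2 of normalized counts plus 1, gave a difference of 3.91 and p = 0.0106 (two-sided). Run over all genes tested, the exact test gave 6.63% of genes an unadjusted p under 0.05, and adjusted over those genes the exact p of Kcnmb2 was 0.507. After adjustment the exact test called 0 of 12390 genes, with a smallest adjusted p of 0.0602. An adjusted p from this test therefore cannot decide whether Kcnmb2 changed. With a pseudocount of 10 the difference was 1.99 (exact permutation test, unadjusted p = 0.016), so its size depended on the pseudocount. With limma-voom the log2 fold change was 4.53, with an adjusted p of 0.523. Its unadjusted p there was under 0.05, as was that of 6.69% of all genes tested. The higher level of Kcnmb2 in MCU-KO thus did not pass adjustment in edgeR, DESeq2 or limma-voom. Kcnmb2 passed the filter on low counts only through the MCU-KO mice.

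**Figure D2:**
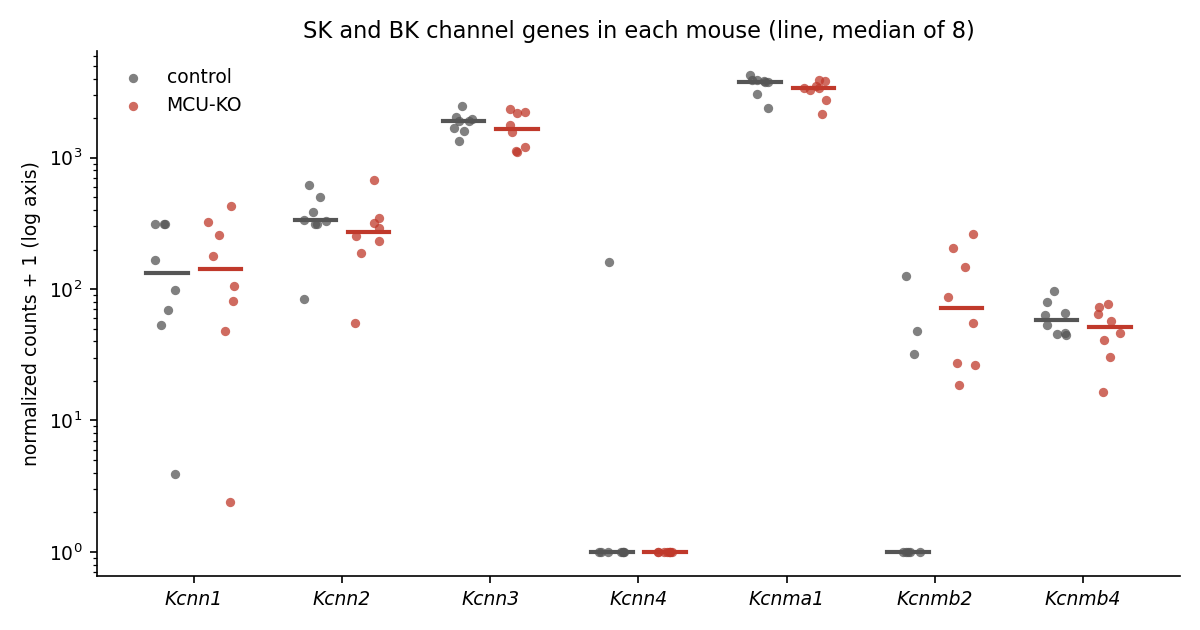
Normalized counts plus 1 (log axis) of the 7 members in each of 8 control and 8 MCU-KO mice, with one point per mouse and a line at the median of each group. The genotypes overlap for every member, Kcnmb2 is at 0 in 5 control mice and in 0 MCU-KO mice, and Kcnn4 is above 0 in 1 control mouse.

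The order of the SK genes by mean level per kb was the same in MCU-KO as in control, with 8.41 ± 2.61 CPM per kb for Kcnn3, 2.05 ± 1.23 for Kcnn2, 2.01 ± 1.68 for Kcnn1 and 0 for Kcnn4 (SD, n = 8). Kcnn2 was higher than Kcnn1 in 5 of 8 MCU-KO mice, and their order by mean reversed when mouse 1, 2, 3, 6 or 8 was left out, for example to 1.67 against 1.78 CPM per kb without mouse 1. Kcnn3 was the highest SK gene in 8 of 8 MCU-KO mice. Its share of the summed SK level per kb of merged exons was 68.6% ± 18.0 (range 40.0 to 95.7). Among the BK genes Kcnma1 again came first at 10.04 ± 1.80 CPM per kb (SD, n = 8). The beta subunits exchanged places by mean level, with 1.71 ± 1.52 CPM per kb for Kcnmb2 and 0.777 ± 0.332 for Kcnmb4 (SD, n = 8), although Kcnmb4 was the higher in 4 of 8 MCU-KO mice. With the longest coding transcript as length, Kcnmb4 remained above Kcnmb2 by mean level, at 1.89 against 1.83 CPM per kb. Whether the order of the beta subunits differs between genotypes was not tested.

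Genes of the wider channel complexes were examined from 4 lists. Of the 8 SK complex partners, which supply calmodulin, casein kinase 2 and protein phosphatase 2A, all were tested and 0 were called (edgeR, adjusted p), with 1 at an unadjusted p under 0.05 and a median log2 fold change of -0.02. That gene was Calm3, a gene for calmodulin, with 17520 to 25060 normalized counts in control and 15510 to 20380 in MCU-KO. The fitted log2 fold change was -0.29 ± 0.08 (SE, edgeR, adjusted p = 0.409), and the ranges overlapped. Calm2, which encodes the same protein, had a log2 fold change of 0.03 ± 0.08 (SE, edgeR, adjusted p = 1.0).

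Of 7 other BK accessory genes, 2 passed the filter on low counts and 0 were called, with 0 at an unadjusted p under 0.05. Lrrc55, the gene of a gamma subunit that shifts BK activation to lower voltages, had 746.5 to 1757 normalized counts in control and 910 to 1849 in MCU-KO. The fitted log2 fold change was 0.09 ± 0.20 (SE, edgeR, adjusted p = 1.0). Per kb, Lrrc55 stood at 10.5 CPM in control, beside 0.954 for Kcnmb4 and 0.421 for Kcnmb2, and it had counts in all 16 mice. Lingo1, a membrane protein that also binds BK, stood at 12.3 CPM per kb. Kcnmb3 and Lrrc52 had 0 counts in all libraries, Kcnmb1 and Lrrc26 were counted in 1 control mouse each, and Lrrc38 in 2 control and 6 MCU-KO mice.

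Of the 3 relatives of Kcnma1 in the Slo family, which are gated by other ions or by pH, 2 were tested and 0 called, with 0 at an unadjusted p under 0.05. The smallest p was that of Kcnu1, with a log2 fold change of 0.65 ± 1.26 (SE, edgeR, adjusted p = 1.0). Of 14 genes for voltage-gated Ca2+ channels, ryanodine receptors and IP3 receptors, which supply the Ca2+ that opens SK and BK channels, 12 were tested and 0 called, 6 with a higher and 6 with a lower fitted level. Itpr1, the gene of the IP3 receptor of type 1, was the only one of them with an unadjusted p under 0.05. It had 453 to 1610 normalized counts in control and 189 to 1049 in MCU-KO. Itpr1 had a log2 fold change of -0.82 ± 0.32 (SE, edgeR, adjusted p = 0.973).

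**Figure D3:**
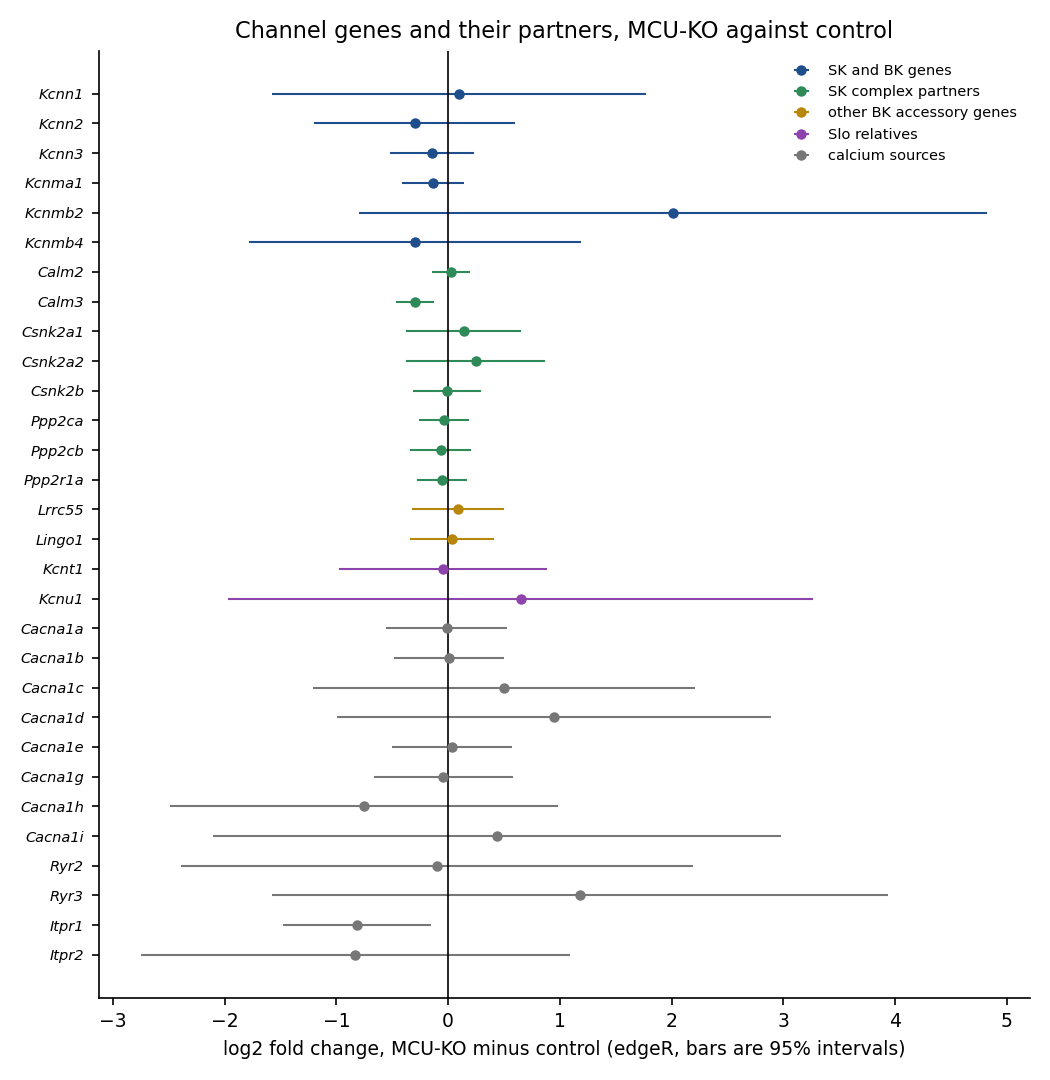
Log2 fold changes of MCU-KO minus control from edgeR for the 6 members tested and the tested genes of the 4 partner lists, with bars for the 95% interval and one colour per list. The interval of every member includes 0, from the narrow one of Kcnma1 (-0.41 to 0.14) to the wide one of Kcnmb2 (-0.80 to 4.83), and Calm3 and Itpr1 have intervals below 0 before adjustment.

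The members were also compared with each other over the 16 mice, as log2 CPM with the mean of each genotype subtracted. Of 15 pairs, 1 had an unadjusted permutation p under 0.05 for Pearson's r and 0 passed adjustment. That pair was Kcnn1 and Kcnn2, with Pearson's r of 0.597 (permutation p = 0.0241) and Spearman's rho of 0.568 (permutation p = 0.0322), and the adjusted p was 0.361. Without the 2 mice farthest from the median of Kcnn1, r was 0.583. For Kcnn1 and Kcnma1 Pearson's r was -0.499 (permutation p = 0.05, adjusted p = 0.375) and Spearman's rho -0.553 (permutation p = 0.0359), which did not pass adjustment for r. Without the 2 mice farthest from the median of Kcnn1 this r was -0.644.

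The level of Kcnma1 moved with that of astrocyte markers. Over the 16 mice, with genotype means subtracted, Kcnma1 and the summed CPM of Gfap, Aqp4, Aldh1l1, Slc1a3 and Gja1 had a Pearson's r of 0.789 (permutation p = 0.0003) and a Spearman's rho of 0.85 (permutation p = 0.0002). The adjusted p was 0.0144 over 48 pairs of members and marker lists, a family of comparisons added after the data had been seen, and this was the 1 pair that passed. Without the 2 mice farthest from the median of the markers r was 0.693, and within genotypes it was 0.858 in control and 0.723 in MCU-KO (n = 8 each). Control mouse 8 and MCU-KO mouse 7, the mice with the least Kcnma1 in their groups, at 124 and 112 CPM, also had the least astrocyte marker mRNA, 77.7 and 136 CPM. For microglial markers r was 0.644 (permutation p = 0.00873, adjusted p = 0.21), for glutamate neuron markers 0.556 (permutation p = 0.0268, adjusted p = 0.385) and for endothelial markers 0.516 (permutation p = 0.0481, adjusted p = 0.385). In the same order, Spearman's rho was 0.618, 0.579 and 0.315 (permutation p = 0.0146, 0.0334 and 0.25). For dopaminergic markers r was -0.524 (permutation p = 0.0462, adjusted p = 0.385) and Spearman's rho -0.482 (permutation p = 0.0776). This r was -0.183 without the 2 farthest mice, -0.22 within control and -0.712 within MCU-KO. The part of other cells in the level of Kcnma1 was not tested. Kcnn3 showed no such relation with astrocyte markers that passed adjustment. With smooth muscle and pericyte markers its r was -0.599 (permutation p = 0.0445, adjusted p = 0.385). For Kcnn1, Spearman's rho was 0.638 with dopaminergic, -0.644 with microglial and -0.544 with astrocyte markers (permutation p = 0.0146, 0.0113 and 0.0343). In the same order its Pearson's r was 0.413, -0.429 and -0.29, which did not pass adjustment.

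**Figure D4:**
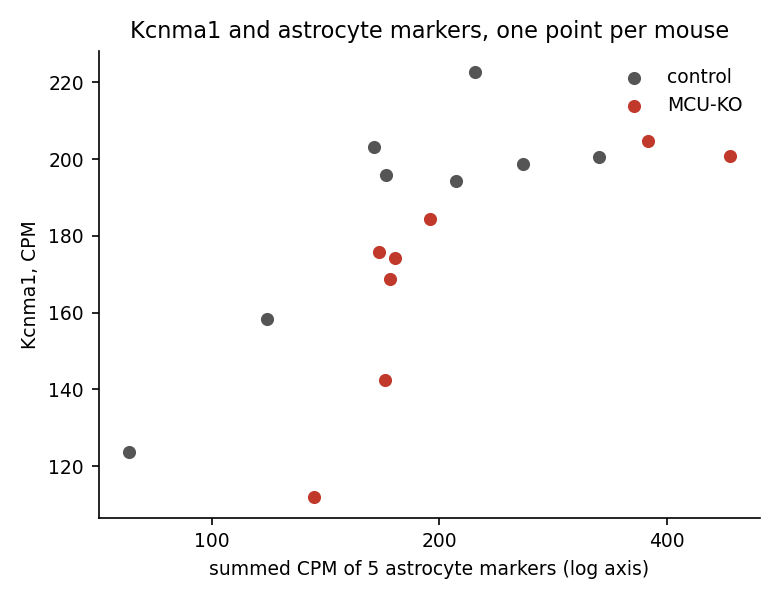
Kcnma1 in CPM against the summed CPM of 5 astrocyte markers (log axis), one point per mouse, 8 control and 8 MCU-KO. The mice with the least Kcnma1, at 124 CPM in control and 112 CPM in MCU-KO, are those with the least astrocyte marker mRNA in their genotype.

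The genes whose pattern over the 16 mice was most like that of the leading pore genes were found among 12389 others by Pearson's r of log2 CPM with genotype means subtracted, as a description. For Kcnn3 they were Optn (r = 0.799, rho = 0.791, r = 0.783 without the 2 farthest mice), Bcl2l1 (0.785, 0.762 and 0.747) and Cdc42ep2 (0.765, 0.779 and 0.871). For Kcnma1 they were Ifi30 (0.899, 0.60 and 0.643), Lyz2 (0.873, 0.659 and 0.455) and Mmd (0.844, 0.806 and 0.573), all lower without the 2 farthest mice. Lyz2 encodes a lysozyme of macrophages and microglia.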

How the data were processed

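RiboTag mRNA of 8 control and 8 MCU-KO mice was sequenced. The authors trimmed reads with cutadapt through Trim Galore, mapped them with STAR to mm10, ran htseq-count for each gene and deposited the raw counts. Tool versions and strand setting are not given in the sources used here. The members and gene lists were chosen with earlier results of these data known.

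Genotypes were compared with edgeR 4.0.16 in R 4.3.3 (filterByExpr, TMM, quasi-likelihood F test, Benjamini-Hochberg adjustment over 12390 genes, threshold 0.05). Normalized counts were divided by DESeq2 1.42.0 size factors. Levels are TMM-scaled CPM per kb of the union of annotated exons (GENCODE M21). Limits at 3 counts cover counting error only. Exact tests used a pseudocount of 1. Correlations used 100000 permutations within genotype. On simulated counts for this comparison (12390 genes), edgeR recovered 10.6% of genes changed 1.5-fold, 27.4% at 2-fold and 55.7% at 4-fold. Named genes were the members, Mcu, each list's genes past the threshold (at most 5) or its gene of smallest p, and the 3 genes most like each leading pore gene. One gene of the SK partner list is not reported here. Other partners named were chosen after their values were seen. Alternatives were DESeq2, limma-voom 3.58.1, other scalings, filters, lengths and pseudocounts, the mouse number as a block, and each mouse left out.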

Additional observations from a re-analysis of the deposited data

Results flagged for a closer look

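Among 23 groups of 8 values examined (members, named partner genes and library totals), 4 held a value far from the others by Dixon's criterion, where chance gives about 1 in 20 for normally distributed values. Counts with many zeros, as for Kcnn4 and Kcnmb2 in control, are not so distributed. No conclusion is therefore drawn from the number flagged. Kcnn4 had 160 normalized counts in control mouse 7 and 0 in the other control mice. Kcnmb2 reached 125 normalized counts in control mouse 8, with the next control mouse at 46.7. Kcnn2 reached 672 normalized counts in MCU-KO mouse 1, with the next at 345. The library of MCU-KO mouse 8 had 14129527 counts, the lowest total of its group.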

How the results depend on the processing

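Under every fit tried, 0 members were called at an adjusted p under 0.05. The number of all genes called was 22 in edgeR, 90 with DESeq2 and 14 with the mouse number as a replicate block, and the causes were not tested. Leaving out each mouse gave 18 to 24. The numbers do not pair the mice: 0 of 8 same-numbered pairs had a correlation over 0.1 (-0.0612 to 0.0309), and with the replicate block Kcnmb2 had a log2 fold change of 5.60 (adjusted p = 0.999 in edgeR). Without control mouse 8 the edgeR value of Kcnmb2 was 3.19, and over the other omissions it was at least 1.66. Without a filter on low counts Kcnn4, counted in 1 mouse, entered the edgeR test with an adjusted p of 0.198.

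The sign of Kcnn1 was not stable. Leaving out each mouse moved its log2 fold change from -0.23 to 0.30 and its difference of mean log2 normalized counts, -0.03, from -0.69 to 0.73, and a pseudocount of 10 gave 0.0372, all without passing a test. In MCU-KO the mean of Kcnn2 minus that of Kcnn1 was 0.0328 CPM per kb, and leaving out each MCU-KO mouse in turn, added after the data had been seen, gave -0.104 to 0.413. Kcnn3 stayed above Kcnn2 in control by 1.34 to 2.87 and Kcnma1 above Kcnmb4 by 2.75 to 5.89 on the log2 scale under all lengths, pseudocounts, scalings and omissions tried. Low genes that have 0 counts in some mice and ample counts in others limit the precision, and 22.3% of the genes tested had a library at 0.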
